A study of Mus musculus with 4 samples.

Results

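The regions described here were stretches of the mouse genome in which H4K20me3 and MCAF1 were called together, and Ring1b was not, in embryonic stem cells. They were found with reads that the aligner placed at exactly 2 locations, each of which was counted at both. The reads of a region could have different second places, and either copy could be their source. Of 2821 H4K20me3 regions called from such reads, 969 (34.3%) overlapped an MCAF1 region and no Ring1b region, and these 969 are the regions of interest. Among the other H4K20me3 regions, 508 overlapped both MCAF1 and Ring1b, 75 overlapped Ring1b but not MCAF1, and 1269 overlapped neither.

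Trimethylation of lysine 20 of histone H4 (H4K20me3) is a mark of compact, stably silent chromatin and is best known from pericentric satellites, telomeres and some transposable elements, where it is laid down by the SUV420H enzymes downstream of methylated lysine 9 of histone H3. MCAF1 (ATF7IP) binds SETDB1, an enzyme that methylates lysine 9 of histone H3, and keeps it stable and active in the nucleus. Ring1b ubiquitinates histone H2A as the catalytic subunit of Polycomb group complexes, and REST is a zinc finger protein that silences neuronal genes outside neurons. Repeated and duplicated sequence, where such silencing is known to act, is usually left out of ChIP sequencing because a read from it cannot be assigned to 1 place.

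Chromatin was taken from V6.5 mouse ES cells, which derive from a C57BL/6 by 129 cross. There were 4 libraries, H4K20me3, MCAF1, Ring1b and REST, 1 per antibody, and no input library was used here. The cells for REST had been off feeder cells for 1 passage and the cells for the other antibodies for 2 passages, and the labels do not give the number of feeder cells that remained. Fragments averaged 500 bp after sonication, 18 amplification cycles were run, and the gel slice held 150 to 350 bp for H4K20me3 and REST and 150 to 300 bp for MCAF1 and Ring1b, for inserts of 50 to 200 nt.

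Reads with 2 locations made up 3.57% of the aligned reads of H4K20me3, 3.32% of MCAF1, 5.81% of Ring1b and 6.43% of REST. After 1 read was kept per position and strand, these gave 560619, 735893, 373572 and 446721 distinct positions, or 0.633, 0.831, 0.422 and 0.504 reads in a 1-kb window that held a 2-location read of any library. The depth set what could be called. An average window needed 11 H4K20me3 reads, 12 MCAF1 reads, 9 Ring1b reads or 10 REST reads to pass the probability threshold of 1e-09, which is 17.4, 14.4, 21.3 and 19.8 times the mean. Ring1b was the shallowest library, and the size of the group without a Ring1b call changed with the depth of the H4K20me3 and MCAF1 libraries. With every library thinned to the 373572 positions of Ring1b, 230 of 1621 H4K20me3 regions (14.2%) overlapped an MCAF1 region and no Ring1b region, against 969 of 2821 (34.3%) at full depth. Of the H4K20me3 regions with MCAF1, 58.3% then also overlapped Ring1b, against 34.4% at full depth. The thinning left all Ring1b positions in place and lowered the number of MCAF1 regions from 2579 to 920. The effect of Ring1b depth itself was not tested.

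The files also held a difference in read length. Where a region was duplicated in inverted orientation, the 2 locations of a read should add to a constant sum of positions. In the 152 inverted duplications with the firmest H4K20me3 match this sum was the same in H4K20me3 and MCAF1, where it matched 98.2% and 97.3% of reads. In Ring1b and REST it was shifted by 10 bp, where it matched 96.8% and 95.6% of reads against 11.1% and 8.56% without the shift. Reads of H4K20me3 and MCAF1 were thus 10 bases longer than those of Ring1b and REST, the same difference as between their alignment seeds of 36 and 26 bases. A longer read is more often unique, so which sequence falls into the 2-location class differs between these library pairs. Levels are therefore compared within a pair, H4K20me3 with MCAF1 and Ring1b with REST. Across pairs, antibody and read length cannot be told apart.

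The regions were chosen by the 2-location reads of H4K20me3, MCAF1 and Ring1b themselves, so these levels are a description and support nothing. H4K20me3 windows made up 0.334% of 1771913 windows with any 2-location read, MCAF1 windows 0.291%, Ring1b windows 0.119% and REST windows 0.0587%. Of all 2821 H4K20me3 regions, 1477 (52.4%) overlapped an MCAF1 region, and 1487 (57.7%) of the 2579 MCAF1 regions overlapped an H4K20me3 region. The regions of interest were 1000 to 7000 bp wide with a median of 1500 bp, covered 1567 kb, and 308 of them had the smallest possible width of 1000 bp. In the highest window of each, H4K20me3 stood 5.01 to 126 times over its background, with quartiles of 14.1, 19.0 and 25.3. The highest MCAF1 window of the overlapping region stood 5.09 to 65.5 times over its background, with quartiles of 11.7, 15.7 and 19.3. The regions held 4.95% of the 2-location positions of H4K20me3 and 3.25% of those of MCAF1, and 1.33% and 1.32% of those of Ring1b and REST.

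Some regions lay just inside or just outside the thresholds. The lowest H4K20me3 value inside was 5.01-fold (26 reads) on chromosome 17 at 13025501-13026500, and the next were 5.26-fold at 6197501-6198500 on the same chromosome and 5.79-fold on chromosome 5 at 33055501-33056500. The H4K20me3 region on chromosome 17 at 13323501-13325500 missed the MCAF1 call at 4.88-fold, with 24 reads. At the Ring1b threshold, the region on chromosome 12 at 25051001-25052000 stayed in with 9 Ring1b reads, 20.7-fold over background and a Poisson p of 1.05e-09, while the region on chromosome 9 at 89916001-89917500 was left out with the same 9 reads, 21.1-fold and a p of 8.92e-10.

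**Figure D1:**
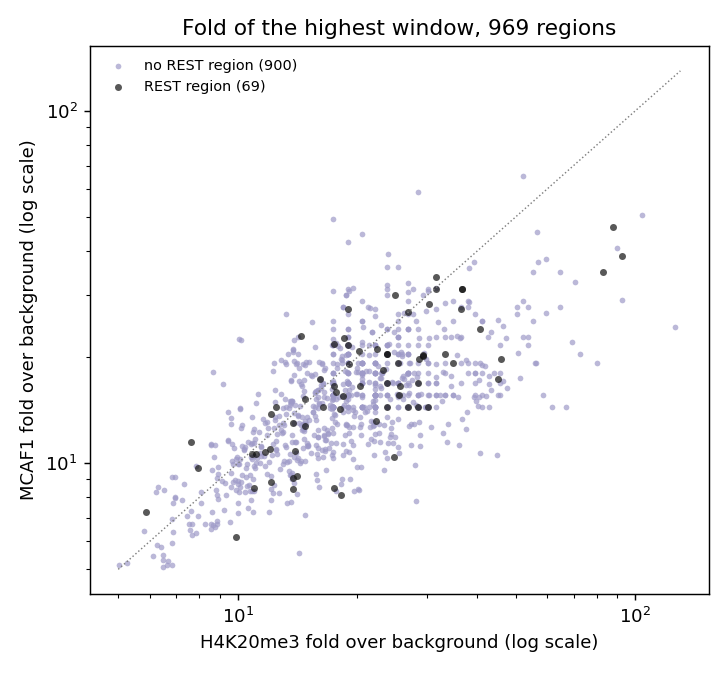
Fold over background of the highest H4K20me3 window (horizontal, log scale) and of the highest MCAF1 window (vertical, log scale) for each of the 969 regions, 1 point a region, with the 69 regions that a REST region overlapped in black; the dotted line marks equal folds. Most points lie below the line at high folds, where H4K20me3 reached 126 and MCAF1 65.5.

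H4K20me3 exceeded MCAF1 in most regions, whose edges were drawn on H4K20me3 calls, while an MCAF1 region needed only to overlap. This choice of edges favours H4K20me3 in the comparison. The density of 2-location reads, given throughout as a multiple of the genome mean of the same library, was 28.0 (95% interval 27.7 to 28.3) for H4K20me3 and 18.4 (18.2 to 18.6) for MCAF1 over the 969 regions, a ratio of 1.52 (1.496 to 1.549). Intervals are exact Poisson or exact binomial (Clopper-Pearson) and cover counting error only, since reads carried no molecular identifiers and each stood at 2 places. Per region the ratio had a median of 1.35 and a range from the 2.5th to the 97.5th percentile of 0.701 to 2.96, and H4K20me3 was the higher in 826 regions (85.2%). Across the 969 regions the folds of the 2 libraries had a Spearman correlation of 0.630, and the densities 0.366. These are descriptions of points that share a local background and duplicated reads.

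Ring1b and REST, which are compared only with each other, lay at nearly the same level. Ring1b density was 7.51 (7.30 to 7.72) and REST density 7.45 (7.26 to 7.64), a ratio of 1.01 (0.970 to 1.05). Neither was at the genome mean. Ring1b reached 5-fold or more in some window of 709 of the 969 regions (73.2%), with a median of 4 reads in the highest window, and fell short of the probability threshold; 58 regions had no Ring1b read. REST reached 5-fold in 706 regions and 50 had no REST read. The absence of a Ring1b call was thus not an absence of Ring1b reads. All 4 libraries thus stood at several times their genome mean in the regions, and there was no input library here to set this against. That mean was low, since it was taken over every window with any 2-location read. In 1-location reads the mean per window was 3.38 for H4K20me3, 4.79 for MCAF1, 1.34 for Ring1b and 1.36 for REST. A window duplicated over its whole length, with each read counted at both copies, can therefore stand above the 2-location mean without enrichment. How much of each level this accounts for was not tested.

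The other H4K20me3 regions differed in these levels. Where neither MCAF1 nor Ring1b was called, the densities were 23.1 for H4K20me3, 8.70 for MCAF1, 4.60 for Ring1b and 4.12 for REST. Where both were called, they were 57.2, 45.9, 60.8 and 32.4, and where Ring1b alone was called, 27.6, 10.6, 39.6 and 7.88. The Ring1b to REST ratio, which compares libraries of the same read length, was 1.01 in the regions of interest, 1.12 (1.06 to 1.17) where neither was called and 1.88 (1.84 to 1.91) where both were. Ring1b calls were used to form these groups.

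REST was not used by the selection. A REST region overlapped 69 of the 969 regions (7.12%, 5.58 to 8.93), against 12.2% of all 2821 H4K20me3 regions. The share was 52.0% (47.5 to 56.4) in the regions with both MCAF1 and Ring1b, 9.33% (3.84 to 18.3) in those with Ring1b alone and 0.236% (0.0488 to 0.689) in those with neither. The regions of interest were thus called for REST less often than those with both factors and more often than those with neither. The intervals take each region as separate, although copies share reads, so they are too narrow to compare the groups. Their REST density in 2-location reads followed the same order, at 7.45 against 32.4 and 4.12. Ring1b density moved with it, at 7.51 against 60.8 and 4.60, and the part of Ring1b in the REST difference was not tested.

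**Figure D2:**
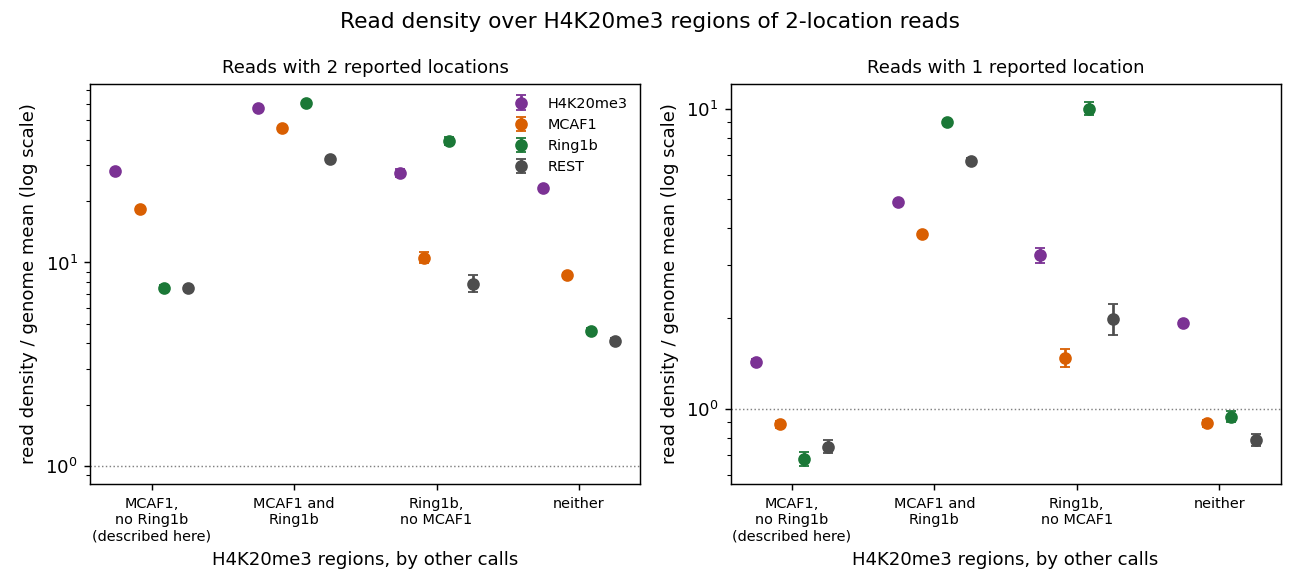
Read density over the genome mean of each library (vertical, log scale) in the 4 groups of H4K20me3 regions, for reads with 2 locations (left) and 1 location (right); points are sums over all regions of a group, bars are 95% Poisson intervals and the dotted line is the genome mean. The regions with MCAF1 and no Ring1b stand at 28.0, 18.4, 7.51 and 7.45 on the left and at 1.43, 0.886, 0.678 and 0.746 on the right.

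Reads with 1 location gave a measurement that the selection had not used. They fall where the copies differ enough for the aligner to place a read only once, or just outside the duplicated sequence. In these reads the density was under the genome mean for every library but H4K20me3. H4K20me3 stood at 1.43 (1.40 to 1.47) times the genome mean, MCAF1 at 0.886 (0.865 to 0.908), Ring1b at 0.678 (0.643 to 0.714) and REST at 0.746 (0.709 to 0.783). The median region was lower, at 0.591 for H4K20me3, 0.521 for MCAF1, 0.249 for Ring1b and 0.367 for REST. No 1-location read fell in 184 regions for H4K20me3, 154 for MCAF1, 476 for Ring1b and 426 for REST, and a count of 0 allows up to 3 reads. Fewer positions are unique within duplicated sequence, so a density under 1 shows neither depletion nor a lack of enrichment.

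Relative to the library of the same read length, H4K20me3 was higher than MCAF1 in 1-location reads, with a ratio of 1.62 (1.57 to 1.67), and Ring1b was lower than REST, with a ratio of 0.910 (0.846 to 0.978). The regions with neither factor had an H4K20me3 to MCAF1 ratio of 2.15 (2.09 to 2.22). H4K20me3 itself was lower in the 969 regions than in those with neither factor, at 1.43 against 1.92 (1.89 to 1.96). MCAF1 density was 0.886 (0.865 to 0.908) against 0.892 (0.872 to 0.914), values that did not differ beyond counting error.

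A small number of regions carried much of the 1-location signal. Without the 55 regions (5.68%) in which any library reached 5 times its genome mean, H4K20me3 stood at 0.897, MCAF1 at 0.658, Ring1b at 0.513 and REST at 0.561, and the H4K20me3 to MCAF1 ratio was 1.36 (1.31 to 1.42). The regions with neither factor, with 142 left out in the same way, gave 1.09, 0.645, 0.458 and 0.511 and a ratio of 1.68 (1.62 to 1.75). Regions called from 1-location reads overlapped 49 of the 969 for H4K20me3 (5.06%, 3.76 to 6.63), 22 for MCAF1 (2.27%, 1.43 to 3.42), 8 for Ring1b (0.826%) and 6 for REST (0.619%). Of 4598722 single windows with any 1-location read, 0.396%, 0.0726%, 0.625% and 0.1% were called. A region is at least as wide as a window and needs only to overlap a call, so these shares are not like those of regions. The shares over all 2821 H4K20me3 regions were 9.22%, 3.86%, 6.13% and 2.55%, so each of the 4 was lower in the regions of interest than over all. The share for MCAF1 was lower in the regions with neither factor, where 11 of 1269 (0.867%, 0.433 to 1.55) overlapped a 1-location MCAF1 region. No 1-location region of any library overlapped 912 of the 969.

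**Figure D3:**
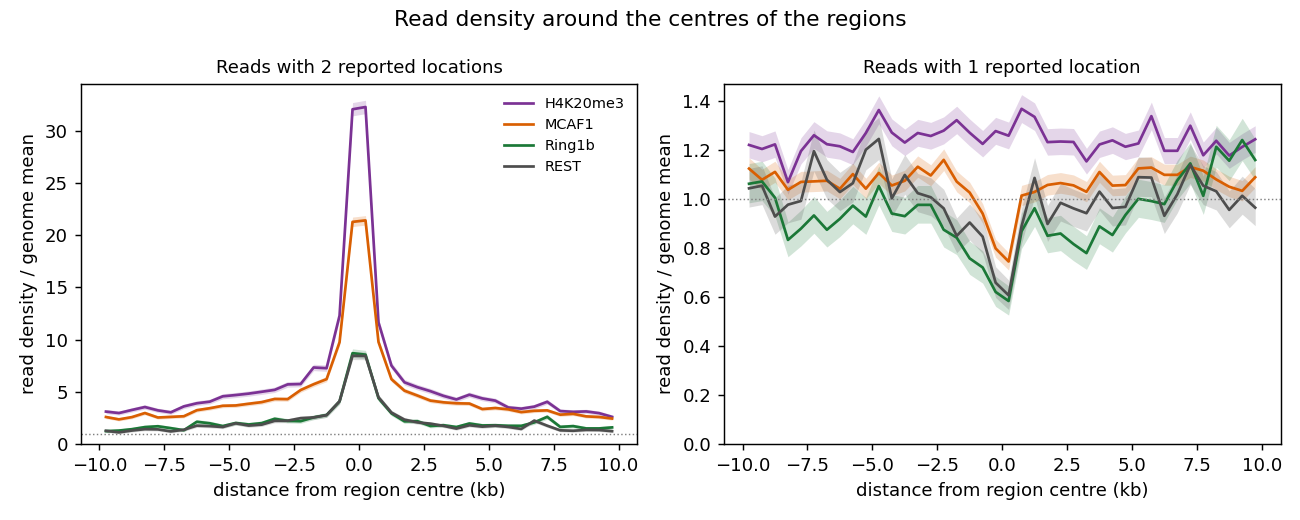
Read density over the genome mean (vertical) in 500-bp bins within 10 kb of the centres of the 969 regions (horizontal, kb), for reads with 2 locations (left) and 1 location (right); lines are the 4 libraries and shading is the 95% Poisson interval. The left panel peaks at 32.2 for H4K20me3 and 21.4 for MCAF1, and in the right panel MCAF1, Ring1b and REST dip at the centre while H4K20me3 does not.

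The profile around the centres showed how narrow the 2-location signal was. In the 500 bp just past the centre the density was 32.2 for H4K20me3, 21.4 for MCAF1, 8.57 for Ring1b and 8.44 for REST. Between 2000 and 2500 bp from the centre it was 5.45, 4.65, 2.20 and 2.09. In 1-location reads, MCAF1 was at 0.746 (0.711 to 0.782) just past the centre and 1.07 (1.02 to 1.11) at 2000 to 2500 bp, Ring1b at 0.585 and 0.860, and REST at 0.608 and 0.986. H4K20me3 was at 1.26 (1.21 to 1.32) and 1.24 (1.18 to 1.29), which did not differ beyond counting error. From 1 to 5 kb outside the edges, H4K20me3 was at 1.24 (1.23 to 1.26), MCAF1 at 1.09 (1.08 to 1.10), Ring1b at 0.933 and REST at 1.04. The same flanks of the regions with neither factor had 1.15, 0.865, 0.750 and 0.791.

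Each read with 2 locations names a second place, and the deposited positions allowed that place to be found for most regions. For each region, the single offset (same strand) or sum (opposite strand) that carried the most H4K20me3 reads onto reads elsewhere was taken. It carried 50% or more of the reads in 705 of the 969 regions (72.8%, 69.8 to 75.5) and 90% or more in 236. A region could thus hold 2-location reads without being 1 stretch with 1 copy: a single second place took in nearly all reads of the 236, most reads of the other matched regions, and under 50% in the rest. In the 705, the copy lay on the same chromosome for 452 (64.1%) and on another for 253, and it was inverted for 322 and in the same orientation for 383. The regions with neither factor matched at 50% or more in 82.3% (80.1 to 84.4), and 58.4% of these copies were on the same chromosome.

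Copies on the same chromosome were mostly close together. The distance was up to 10 kb for 57 regions, 10 to 100 kb for 256, 100 kb to 1 Mb for 80 and over 1 Mb for 59, with a median of 44.1 kb. The median was 83.9 kb in the regions with neither factor and 53.7 kb in those with both. The stretch that a single offset covered, from the first to the last matched read, had a median of 722 bp and a longest value of 18815 bp. It is a lower bound on the duplicated length, since it ends at the last read.

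The MCAF1, Ring1b and REST reads, which had no part in the search, were carried to the same place in 70.5%, 65.2% and 67.8% of cases. Where both H4K20me3 and MCAF1 matched at 50% or more, in 554 regions (57.2%), 76.3% of 3159 REST reads and 72.6% of 2643 Ring1b reads also matched. Where H4K20me3 matched at less than 50%, 23.1% of 2029 REST reads did. Of the 705 copies, 478 (67.8%) held a region among the 969, in some cases the region itself. A region with both MCAF1 and Ring1b was held by 14.3%, a region with neither by 62, and 64 held no called H4K20me3 region. The copies with both factors include dense places described below, where an offset can match by coincidence.

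**Figure D4:**
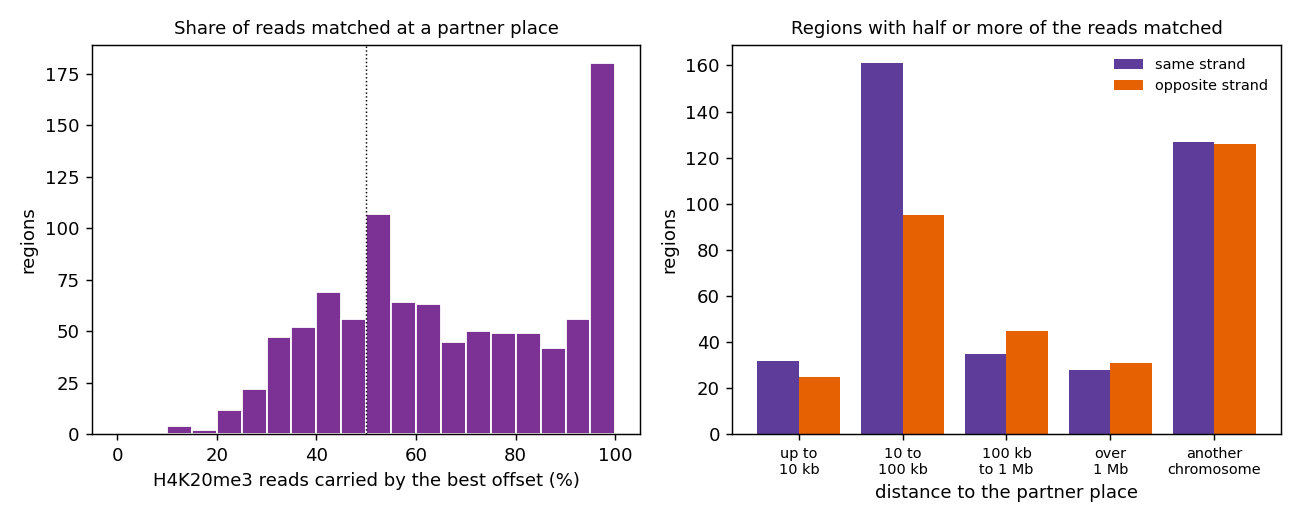
Left, number of regions (vertical) by the percent of their H4K20me3 reads that 1 offset carried to a second place (horizontal, 5-point bins), with the dotted line at 50; right, number of regions (vertical) by the distance to that place, for the 705 regions at or above the line, with same-strand and opposite-strand copies as separate bars. The tallest bar on the left is at 95% and above, and 256 regions on the right lie at 10 to 100 kb.

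The 969 regions are not 969 separate observations. Both copies were among them in 229 distinct pairs that took in 451 regions, and the members of a pair share most of their 2-location reads. Of these pairs, 171 (74.7%) were on the same chromosome, 124 of them within 100 kb, and 58 joined different chromosomes. The copies were inverted in 107 pairs. A read cannot be assigned to either copy of a pair, so a region may be called because of chromatin at the other one.

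The pair with the most 1-location H4K20me3 reads was one whose copies differed. The region on chromosome 12 at 20478501-20481500 and the region on the X chromosome at 110081501-110084500 shared an inverted stretch of 1225 bp, with H4K20me3 at 42.9 and 56.4 times background in 2-location reads. Over that stretch, 184 H4K20me3 reads with 1 location fell on the chromosome 12 copy and 15 on the X copy, so that the X copy held 7.54% (4.28 to 12.1) of them. MCAF1 had 32 and 0 reads, REST 9 and 0, and Ring1b 2 and 0. Both H4K20me3 and MCAF1 reads with 1 location were thus more numerous on chromosome 12, while the Ring1b and REST reads were too few to judge. Whether the copies differ in unique bases was not tested. A tandem pair on chromosome 19, at 4036501-4038000 and 4040001-4042500, was even, with 13 and 15 H4K20me3 reads and 20 and 18 MCAF1 reads. Of the 229 pairs, 4 had 20 or more such reads of H4K20me3. Among these, the interval left out 50% only in the pair of chromosomes 12 and X, where MCAF1 was uneven as well. For MCAF1, 4 pairs had 20 or more reads, and the interval left out 50% in 2, that pair and 1 on chromosome 16. The latter had 2 MCAF1 reads at 23053501-23054500 and 21 at 23006501-23007500, or 8.70% (1.07 to 28.0) at the first, with 6 and 7 H4K20me3 reads. Because a difference in unique bases was not tested, the copy that carried the mark was not resolved in any pair.

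Long duplications allowed the regions to be set beside the rest of the sequence duplicated with them. There were 10 distinct blocks longer than 5 kb, which held 16 of the regions, and the part of a block outside the regions could be measured in 9 of them. H4K20me3 density was 33.0 inside the regions and 15.6 in the rest of the blocks, and MCAF1 density 25.3 and 17.6, as the selection requires. Ring1b, at 11.4 and 10.5, had a ratio of 1.08 (0.879 to 1.33), and REST a ratio of 1.25 (1.01 to 1.53). The densities inside pool all 10 blocks and those of the rest pool 9, so these values are not paired by block. Their intervals leave out the spread among blocks. The ratio ran from 0.617 to 7.78 for Ring1b and from 0.342 to 7.44 for REST among the 9 blocks. Pooled, the rest of the blocks stood above the genome mean in all 4 libraries. In the block on chromosome 7 at 10210724-10216908, however, Ring1b was at 0.538 in the rest.

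The block that joined different chromosomes ran from 8954635 to 8973429 on chromosome 15 and from 34143059 to 34161853 on chromosome 18, inverted, over 18795 bp. Each copy held 3 of the regions, and 100% of their H4K20me3 reads matched the other copy. On chromosome 15 the regions at 8955501-8958500, 8967501-8969500 and 8969501-8971000 reached 28.7, 36.1 and 15.7 times background in H4K20me3, and 12.0, 11.3 and 11.3 times in MCAF1. They held 64, 43 and 20 H4K20me3 reads, 36, 25 and 21 MCAF1 reads, 10, 4 and 1 Ring1b reads and 5, 4 and 3 REST reads. H4K20me3 density was 30.9 in the 3 regions and 10.7 in the rest of the block, while MCAF1 was more even, at 15.2 and 12.5. Ring1b was lower in the regions, at 5.47 against 8.87, and REST was at 3.66 and 3.39. The highest MCAF1 bin of the block held 15 reads (36.1 times the mean) at 5000 bp from the start of the block, in a stretch outside the regions where H4K20me3 had 6 reads (19.0 times). Not 1 of the 18795 bases of the chromosome 15 copy had a 1-location read in any library, and the chromosome 18 copy had 1 such read of MCAF1 and 2 of Ring1b, so the copies could not be told apart.

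A few dense places were the second location of many regions. A stretch of chromosome 2 at 98462229-98469037 was the copy of 22 regions from 13 chromosomes, and a stretch of chromosome 10 at 57618994-57621127 the copy of 21 regions from 12 chromosomes. Both were themselves H4K20me3 regions with MCAF1 and Ring1b. The chromosome 2 stretch stood at 231 times the genome mean in H4K20me3, 267 in MCAF1, 372 in Ring1b and 300 in REST, so all 4 libraries were high there. The chromosome 10 stretch stood at 445, 191, 159 and 82.8. H4K20me3 reads filled 7.31% and 14.0% of all strand positions in these stretches, and where many positions are filled an offset can match by coincidence. At the H4K20me3 offset, 51.7% of the MCAF1 reads of the 22 regions also matched, and 17.6% of those of the 21 regions, of which 0 reached 50%. The copies at chromosome 10 thus rested on H4K20me3 reads alone. They included the highest H4K20me3 fold of all 969, singled out after its value was seen: the region on chromosome 3 at 86995501-86997500 had 117 H4K20me3 reads (126 times background), 22 MCAF1 reads (24.4 times), 0 Ring1b reads and 0 REST reads.

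The strongest regions, ranked by the smaller of the H4K20me3 and MCAF1 folds, were a mixture of these kinds. First was the region on chromosome 4 at 151996001-151997500, with 33 H4K20me3 reads (52.2 times background), 56 MCAF1 reads (65.5 times), 2 Ring1b reads and 2 REST reads. It matched the dense chromosome 2 stretch in 87.9% of its H4K20me3 reads. It was followed by chromosome 6 at 29697001-29699500, with 92 H4K20me3 reads (104 times), 58 MCAF1 reads (50.6 times), 7 Ring1b reads and 12 REST reads. It was also high in 1-location reads, at 19.7 times the mean for H4K20me3 and 7.43 for MCAF1. The next was chromosome 4 at 118045001-118047000, with 90 and 52 reads (88.1 and 47.0 times) and 5 Ring1b and 15 REST reads. This region was called for REST, and its best match was an inverted copy within the region itself. MCAF1 exceeded H4K20me3 in the first of these and H4K20me3 exceeded MCAF1 in the others.

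Several strong regions shared reads between chromosomes. The region on the X chromosome at 46617001-46621500 (56.5 and 45.3 times background in H4K20me3 and MCAF1) shared an offset with the one on chromosome 11 at 19920501-19924500 (39.4 and 37.4 times). The offset carried only 21.7% and 26.5% of their H4K20me3 reads, so most of their reads had other second places. The region on chromosome 10 at 71099001-71103500 (90.1 and 40.9 times) and that on chromosome 16 at 22296001-22299500 (59.6 and 38.0 times) matched in inverted orientation over 2276 bp, in 34.4% and 56.8% of their H4K20me3 reads. The region on chromosome 1 at 52867001-52870000 (38.2 and 35.9 times) matched chromosome 10 at 129730501-129732000 (31.5 and 31.5 times) over 652 bp, in 50.8% and 75% of reads. Chromosome 6 at 149318001-149324000 (83.1 and 34.8 times), 1 of the 5 widest regions, and chromosome 8 at 87560001-87564000 (70.6 and 32.6 times) also shared an offset, but it carried only 19.3% and 29.3% of their H4K20me3 reads, under the 50% used above. The pair on chromosome 12 at 112391501-112393000 and 112393501-112395000 was an inverted repeat of adjacent copies that matched in 100% of reads, with 24 H4K20me3, 26 MCAF1, 7 and 6 Ring1b, and 10 and 11 REST reads. Both copies were called for REST.

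REST density was highest in another adjacent duplication. The regions on chromosome 8 at 75028501-75030000 and 74986501-74988000, 42080 bp apart and matched in 100% of H4K20me3 reads, held 44 and 43 REST reads (58.2 and 56.9 times the mean), 32 and 32 H4K20me3 reads, 41 and 41 MCAF1 reads, and 10 and 10 Ring1b reads. H4K20me3 density was 33.7 in both and MCAF1 density 32.9 in both. The next was chromosome 17 at 6413501-6415000, with 32 REST reads (42.3 times), 29 Ring1b reads (45.9 times), 80 H4K20me3 and 111 MCAF1 reads. H4K20me3 was 5.88 times over its background there, which was taken from the surrounding megabase, and 84.3 times over the genome mean. Ring1b was thus not low in this region, although it was not called, and the matched copy held a region with both MCAF1 and Ring1b.

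The widest regions were 2 of 7000 bp, on chromosome 4 at 61717001-61724000 and on chromosome 7 at 63960001-63967000. The first matched an inverted copy at 61708303-61714504 on the same chromosome, over 6202 bp, which ran across 2 further regions, at 61708001-61713000 and 61713001-61715000. It held 133 H4K20me3, 132 MCAF1, 22 Ring1b and 35 REST reads. The region of 6500 bp on chromosome 4 at 3007001-3013500 had 252 H4K20me3, 144 MCAF1, 39 Ring1b and 63 REST reads with 2 locations and 481, 305, 51 and 68 with 1 location. It was high in all 4 libraries, at 21.9, 9.79, 5.85 and 7.69 times the genome mean in 1-location reads. The region on chromosome 2 at 30050001-30055500, in contrast, had 157 H4K20me3 and 60 MCAF1 reads but 0 Ring1b and 3 REST reads. Among the 184 regions with no 1-location H4K20me3 read, the region on chromosome 1 at 64658501-64659500 had 12 H4K20me3, 13 MCAF1, 0 Ring1b and 2 REST reads with 2 locations and none of any antibody with 1 location.

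The regions lay on all 21 chromosomes, unevenly. Chromosome 7 held 112 of them, or 10.2 (8.42 to 12.3) per 10000 windows with any 2-location read, against 2.68 (1.78 to 3.88) on chromosome 3, the lowest. Chromosomes 17, 11 and 5 had 7.98, 7.65 and 7.38, and the X chromosome had 3.62 (2.52 to 5.04). The Y chromosome had 4 regions in few windows, 15.7 (4.28 to 40.2) per 10000. As a share of the H4K20me3 regions of the chromosome, they were 42.4% on chromosome 7, 42.7% on chromosome 11 and 21.2% on chromosome 3, against 34.3% in all.

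Joined across gaps of up to 100 kb, the 969 regions formed 649 groups. Of these, 467 were single regions and 182 held the other 502. The largest groups held 8 regions each, on chromosome 6 at 85041501-85126000 and on chromosome 17 at 35642501-35738500. The 2 groups of 7 were on chromosome 7 at 25170001-25239000, where 6 of the 7 had their copy within the group, and on chromosome 16 at 22944501-23054500, where 4 of 7 did. In the group on chromosome 7, H4K20me3 folds were 8.90 to 17.4 and MCAF1 folds 8.32 to 13.3, and none of its regions was called for REST. Among the 4 groups of 6, that on chromosome 5 at 138080501-138099000 spanned 18.5 kb and had 5 of its 6 copies inside. Across this group the 2-location density was 16.1 for H4K20me3, 11.3 for MCAF1, 1.79 for Ring1b and 2.47 for REST. In 1-location reads it was 0.415, 0.135, 0.121 and 0.119.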

How the data were processed

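The deposited files hold other values than counts: signed read positions, 1 entry per reported alignment, negative on the minus strand, with no normalization. The authors aligned reads with Bowtie, whose version was not given in the sources used here, to mm8 and reported at most 2 locations, per the file headers and per the submitters' processing notes. Minus-strand entries are leftmost bases, as the position sums of inverted copies showed.

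From these positions, 1 entry was kept per position and strand, moved 75 bp towards the 3′ end and counted in 1000-bp windows every 500 bp. A window was called at a Poisson p of at most 1e-09 and at least 5 times the larger of the genome and 1-Mb means over windows with any 2-location read; overlapping windows were joined. The mitochondrial genome was left out. Coordinates are mm8, counted from 1. Sequence and annotation of mm8 were not used here, so no genes or repeats are named. The regions, and the rule for those named (the 20 with the highest smaller fold, the 5 widest, the extremes of 1-location H4K20me3 and REST, the largest groups and those nearest the thresholds), were chosen with earlier results of these data known; block examples, copy pairs with uneven reads and dense copy places were picked after their values were seen. With 1 library per antibody there was no replicate and no test between antibodies. The procedures were tested on simulated data. Python 3.11.15, numpy 2.4.6, scipy 1.17.1 and pandas 2.3.3 were used.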

Additional observations from a re-analysis of the deposited data

How the results depend on the processing

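The number of regions depended on the depth and the call. It was 1876 at a probability of 1e-06, 576 at 1e-12, 492 with 500-bp windows, 1754 with the genome mean alone, 247 with each read weighted 0.5 at each location, 230 with every library thinned to 373572 positions and 375 with reads of 1 and 2 locations together. Of the 969, 16.0% were overlapped under that weight, 21.6% after thinning and 9.18% in the combined reads. With 9 other settings (fold of 3 or 10, windows of 2000 bp, no shift or 50 bp, repeated reads kept, overlap of 50% or within 1000 bp, REST regions left out) and with the minus-strand positions moved to the other read end, it stayed between 821 and 1291. The 1-location densities were 0.591, 0.521, 0.249 and 0.367 (H4K20me3, MCAF1, Ring1b, REST) as medians, 1.05, 0.697, 0.545 and 0.592 over the surrounding 1 Mb, and 0.897, 0.658, 0.513 and 0.561 without the 55 high regions; H4K20me3 was 1.52 with repeated reads. The 2-location density of Ring1b was 7.11 as a median, 5.89 over 1 Mb and 7.17 without REST regions, and that of REST 6.61, 6.03 and 6.47, and 7.84 with repeated reads. The share with a matching copy was 89.1% within 2 bp, 98.1% at 25% of reads and 57.2% when MCAF1 also had to match. The groups numbered 832 with gaps of 10 kb and 454 with 1 Mb. The strand, MCAF1-match, high-region and REST-density settings were chosen after seeing the data. Apart from thinning and weighting, which leave fewer reads, the cause was not tested. No paired analysis was possible because there was 1 library per antibody.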

Other observations

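Repeated reads, which were removed before counting, were not spread evenly among the libraries. In the 969 regions they made up 5.40% of 2-location entries of H4K20me3, 14.6% of MCAF1, 5.003% of Ring1b and 13.3% of REST, against 4.56%, 14.4%, 6.67% and 8.70% over the whole genome. Across the 969 regions, 1-location densities had Spearman correlations of 0.735 between H4K20me3 and MCAF1, 0.541 between H4K20me3 and REST and 0.506 between Ring1b and REST, each over points that share the number of unique bases of a region. In 2-location reads the same pairs had 0.366, 0.234 and 0.390, and H4K20me3 with Ring1b had 0.0708.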
